A study of Canis lupus familiaris with 5 samples.

Results

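The mitochondrial genome of the dog encodes subunits of the last 3 enzymes of oxidative phosphorylation, and 6 of its genes are described here. COX1, COX2 and COX3 are the mitochondrially encoded subunits of cytochrome c oxidase (complex IV), ATP8 and ATP6 are those of ATP synthase, and CYTB is the cytochrome b of complex III. The genes were chosen by gene ID, and CYTB by its position, and make up 6 of 37 gene models on chromosome MT and 6 of 32220 in the count table. They were compared across 5 RNA libraries of cells from 1 adult dog, named K9, at 3 stages of reprogramming. The stages were ear skin fibroblasts at passage 1 (1 library), induced neural stem cell-like cells (iNSLCs) at passage 2 (1 library), and induced pluripotent stem cells (iPSCs) at passage 9 for clone 1 and passage 8 for clones 2 and 3 (3 libraries). The iNSLCs were the primary colonies that grew from fibroblasts given episomal vectors with reprogramming factors (the EP-B set) in the medium NSM, and the iPSC clones arose after transfer to an embryonic stem cell medium (ESM). Passage and medium went with stage in every library, so they cannot be told apart from it. The clones share a donor, and the lone fibroblast and iNSLC libraries have no replicate. In its label the iNSLC library carries the same number as iPSC clone 1. The labels do not say which clones arose from these iNSLCs.

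Mitochondrial genes are transcribed as long precursors from each strand of a circular genome and cut at the tRNAs that lie between them. In mammals the reading frames of ATP8 and ATP6 overlap and are carried by a shared mRNA. All 6 genes work only together with subunits encoded in the nucleus. Cytochrome b passes electrons from ubiquinol towards cytochrome c, cytochrome c oxidase hands them to oxygen, and ATP synthase uses the proton gradient that results. Fibroblasts commonly rely more on this oxidative route than pluripotent cells do, which is background and was not measured here.

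In the coordinates of CanFam3.1, the genes lie on the plus strand of chromosome MT, each as 1 exon without an intron. COX1 (ENSCAFG00000022723) spans 5349 to 6893, COX2 (ENSCAFG00000022726) 7034 to 7717, ATP8 (ENSCAFG00000022728) 7803 to 8006, ATP6 (ENSCAFG00000022729) 7964 to 8644, COX3 (ENSCAFG00000022730) 8644 to 9427 and CYTB (ENSCAFG00000022742) 14183 to 15322. ATP8 shared 43 of its 204 bases with ATP6, and ATP6 shared 1 base with COX3. The setting for reads in such shared bases is among those not given in the sources, so the split between ATP8 and ATP6 is uncertain. Reads that also match nuclear copies of mitochondrial DNA cannot be separated either. The count table gives IDs without names and the gene table at hand holds 0 mitochondrial rows, so the names rest on the IDs and positions by which the genes were chosen. For the same reason the markers of the 3 cell types were not examined.

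The iNSLC library held 11699186 counts, and the other libraries 20021139 to 34317091. It was the shallowest, and 74.0% of its gene models with 1 to 10 counts had an even count, against 59.6% to 64.0% in the other libraries. At the levels of the 6 genes counting error was small, the lowest count being 1705 for ATP8 in the iNSLCs. Intervals of shares and ratios within a library are at 95% and cover counting error only, and would be too narrow if a fragment was counted more than once.

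The 6 genes together took 3.09% of the counts in fibroblasts (Clopper-Pearson interval 3.086 to 3.098%) and 1.67% in iNSLCs (1.66 to 1.68%). In the iPSC clones they took 3.71%, 6.03% and 4.42%, a mean of 4.72 ± 1.19% (SD, n = 3). As shares of the raw totals, the iNSLC library was thus lowest and every clone was above the fibroblasts. With the TMM factors of edgeR, which adjust the totals for differences in composition, the 6 genes summed to 40160 CPM in fibroblasts, 17057 CPM in iNSLCs and 33862, 53698 and 40955 CPM in the clones, so that iPSC 1 was below the fibroblasts. The mean of the clones was 2.82 times the share in iNSLCs and 1.53 times that in fibroblasts, or 2.51 and 1.07 times with TMM. By complex, the ratio of the iPSC mean to iNSLCs was 2.58 for the COX genes, 3.43 for ATP8 and ATP6 together and 4.02 for CYTB. Against fibroblasts the ratios were 1.29, 2.39 and 3.52 in the same order of complexes, and 0.901, 1.67 and 2.47 with TMM, so that the direction for the COX genes turned with the scaling. The clones ranged from 0.979 to 1.71 times the fibroblast share for the COX genes, on both sides of 1, but from 2.89 to 4.01 times for CYTB (from 0.689 to 1.17 and from 2.03 to 2.75 times with TMM). An exact permutation test of 3 clones against 1 library cannot give a p below 0.25 (one-sided), so shares and ratios are given without a test. In RNA from bulk cultures, fewer cells of a type and less mitochondrial RNA per cell cannot be told apart.

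**Figure D1:**
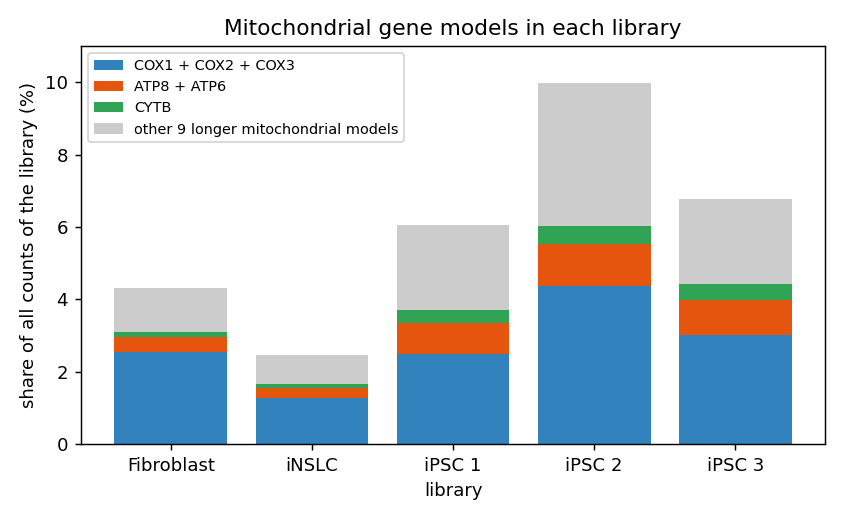
Share of all counts of a library (%, y axis) taken by the COX genes, ATP8 with ATP6, CYTB and the other 9 mitochondrial models of at least 200 bases, with 1 stacked bar per library in the order of the stages. The 6 genes reach 3.09% in the fibroblast bar, 1.67% in the iNSLC bar and 3.71% to 6.03% in the iPSC bars.

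Levels of single genes are given as CPM, counts scaled to a common library total with the TMM factors, and are compared between genes per kb of model length. COX1, the catalytic core of cytochrome c oxidase, had 20003 CPM in fibroblasts, 7442 CPM in iNSLCs and 11612, 20179.5 and 13139 CPM in iPSC 1, 2 and 3. Its fibroblast level lay inside the range of the clones, but only just below iPSC 2 and above iPSC 1 and 3. The size factors of DESeq2 (1.13 for iPSC 2, 0.760 for fibroblasts) reverse the order of fibroblasts and iPSC 2. COX2, which takes up the electrons of cytochrome c, had 5834 CPM in fibroblasts, 2218 CPM in iNSLCs and 5585, 9359 and 7265 CPM in the clones. COX3, the remaining mitochondrial core subunit of the enzyme, had 7318 CPM in fibroblasts, 3338 CPM in iNSLCs and 5643, 9283 and 7562 CPM in the clones. For all 3 COX genes on this scale the fibroblast value lay between the lowest and the highest clone, while the iNSLC value lay below every clone. With library size only, COX1 alone kept this position, and the fibroblast value was below every clone for COX2 (at least 6112 CPM in the clones and 4492 CPM in fibroblasts) and COX3 (at least 6174 CPM in the clones and 5634 CPM in fibroblasts).

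ATP6, the subunit that forms the proton path of ATP synthase, had 5023 CPM in fibroblasts, 2829 CPM in iNSLCs and 7034, 9565 and 8259.7 CPM in the clones. ATP8, a small membrane subunit of the same enzyme, had 412 CPM in fibroblasts, 149 CPM in iNSLCs and 794, 989 and 619.8 CPM in the clones. CYTB had 1571 CPM in fibroblasts, 1081 CPM in iNSLCs and 3193, 4323 and 4110.3 CPM in the clones. For these 3 genes every clone was above the fibroblasts as well as the iNSLCs under both scalings. Over all 17479 models tested, all clones lay above the iNSLC library in 41.8% and above the fibroblast library in 44.3%, so that 6 of 6 and 3 of 6 genes have to be read against these shares. With library size only, all clones lay above the fibroblasts for 5 of 6 genes and for 55.9% of all models. With TMM, all clones lay below the fibroblasts for 0 of 6 genes and for 35.9% of all models. COX1 missed this by a small margin in iPSC 2. The iNSLC library was the lowest of the 5 for all 6 genes, which held for 25.5% of all models. The genes share a precursor and a library scaling and are not independent in this.

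Per kb, ATP6 was highest in each clone, at 10328, 14046 and 12129 CPM per kb, and COX2 came next. Among the 17089 tested models of at least 200 bases, ATP6 ranked 1 in each clone and COX2 ranked 2. COX1 ranked 1 in the fibroblasts with 12947 CPM per kb and was also the highest of the 6 in the iNSLCs, with 4817 CPM per kb. COX1 and COX3 did not keep an order across the clones, as COX1 was above COX3 in 2 of 3. ATP8 and CYTB were the lowest of the 6 in every library and changed places as well, with ATP8 above CYTB in fibroblasts and 2 clones and below it in iNSLCs and iPSC 3. In the iNSLCs ATP8 ranked 107 and CYTB 78, against 29 and 59 in fibroblasts and 7 to 12 for both genes in the clones.

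**Figure D2:**
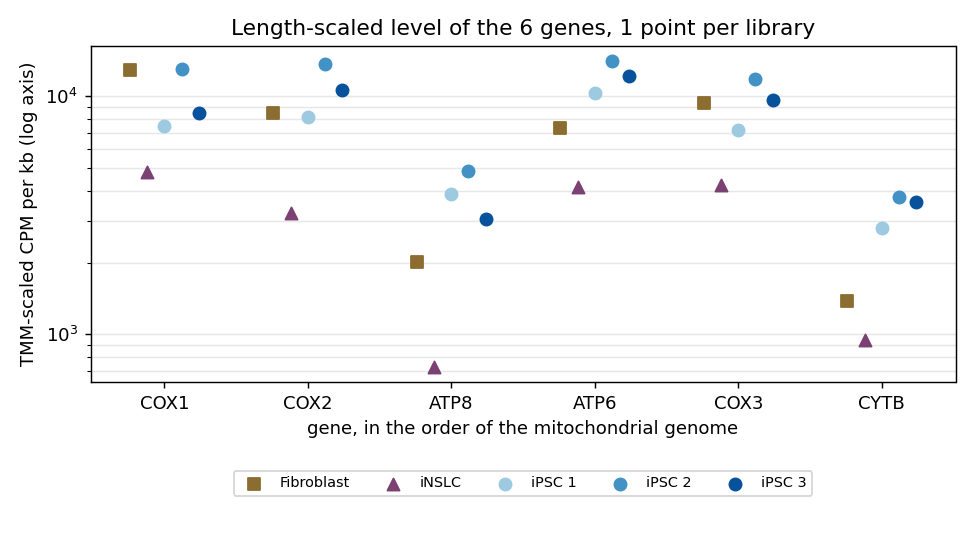
Level of each gene in TMM-scaled CPM per kb (log y axis), with 1 point per library and the genes in the order of the mitochondrial genome. The iNSLC library is lowest for each gene. The fibroblast point is within the clones for COX1 (just below iPSC 2), COX2 and COX3. It is below them for ATP8, ATP6 and CYTB (and for COX2 and COX3 too with library size only).

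The clones themselves differed. iPSC 2 was the highest clone for all 6 genes, while it was highest for 31.7% of all models tested. The coefficient of variation between clones was 30.5% for COX1, 25.5% for COX2, 24.3% for COX3 and 23.0% for ATP8, but 15.3% for ATP6 and 15.5% for CYTB. The median over the 9057 models with a clone mean of at least 10 CPM was 20.7%. The ratio of the highest to the lowest clone was 1.74 for COX1 and 1.35 for CYTB.

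Set against the lone iNSLC library, the iPSC clones show how the later stage differed. edgeR's quasi-likelihood test was fitted over all models, the spread came from the 3 clones, and the lone iNSLC library was assumed to vary like them. Of 17479 models, 11.2% were called at an adjusted p under 0.05, and 3.51% were called higher in iPSCs. ATP8 and CYTB, 2 of the 6 genes, rose in iPSCs. The level of ATP8 depends on how reads in the bases it shares with ATP6 were counted, which is not known. In iPSCs ATP8 averaged 801 ± 184 CPM (SD, n = 3), against 149 CPM in iNSLCs, and its log2 fold change was 2.43 ± 0.431 (SE, edgeR adjusted p = 0.0250). In iPSCs CYTB averaged 3876 ± 600.2 CPM (SD, n = 3), against 1081 CPM in iNSLCs, and its log2 fold change was 1.84 ± 0.390 (SE, edgeR adjusted p = 0.0382).

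The other 4 genes did not pass the test, although each clone exceeded the iNSLC library. In iPSCs ATP6 averaged 8286 ± 1266 CPM (SD, n = 3), against 2829 CPM in iNSLCs, a log2 fold change of 1.55 ± 0.390 (SE, edgeR adjusted p = 0.0568). In iPSCs COX2 averaged 7403 ± 1890.3 CPM (SD, n = 3), against 2218 CPM in iNSLCs, a log2 fold change of 1.74 ± 0.452 (SE, edgeR adjusted p = 0.0617). For COX3 the log2 fold change was 1.17 with an interval from 0.12 to 2.22 (edgeR adjusted p = 0.130). For COX1 it was 1.01 with an interval from -0.12 to 2.14 (edgeR adjusted p = 0.196), which includes 0. All 6 values lay above 0.20, the median log2 fold change of all models. Their median was 1.64.

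These calls depended on the clones and on the prior of each fit. Without iPSC 2 the prior degrees of freedom were infinite, against 4.06 with all clones, so models kept no spread of their own. The log2 fold change was then 1.49 ± 0.502 (SE) for COX2 and 1.39 ± 0.501 (SE) for ATP6. With all clones they were 1.74 ± 0.452 and 1.55 ± 0.390, so the added calls of these genes did not come from larger differences. Without iPSC 3 none of the 6 genes was called and 4 had an unadjusted p under 0.05, with edgeR adjusted p of 0.0830 for ATP8 and 0.109 for CYTB, and edgeR then called 0 of all models, with 4863 at an unadjusted p under 0.05. Without iPSC 1 ATP8 alone was called (edgeR adjusted p = 0.0381), and without iPSC 2 ATP8, CYTB, COX2 and ATP6 were. The same 4 genes were called by DESeq2 and by limma-voom with all libraries. Of all models, DESeq2 called 19.9% and limma-voom 9.73%, against 11.2% in the main fit. The edgeR fits called 8.35% without iPSC 1 and 24.3% without iPSC 2.

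The comparison of iPSCs with fibroblasts asked how far the genes ended from their starting level. Here 28.0% of all models were called and 13.7% were called higher in iPSCs, so that 1 of 6 genes was near this background. CYTB rose in iPSCs, where it averaged 3876 ± 600.2 CPM (SD, n = 3), against 1571 CPM in fibroblasts. The log2 fold change was 1.30 ± 0.376 (SE, edgeR adjusted p = 0.0481). The edgeR adjusted p was 0.0873 without iPSC 1, 0.0937 without iPSC 3 and 0.0549 with the size factors of DESeq2. In iPSCs ATP8 averaged 801 ± 184 CPM (SD, n = 3), against 412 CPM in fibroblasts, a log2 fold change of 0.96 with an interval from 0.01 to 1.91 (edgeR adjusted p = 0.113). In iPSCs ATP6 averaged 8286 ± 1266 CPM (SD, n = 3), against 5023 CPM in fibroblasts, a log2 fold change of 0.72 with an interval from -0.18 to 1.62 (edgeR adjusted p = 0.185).

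The COX genes had the lowest fold changes against fibroblasts. In iPSCs COX2 averaged 7403 ± 1890.3 CPM (SD, n = 3), against 5834 CPM in fibroblasts, a log2 fold change of 0.34 (edgeR adjusted p = 0.551). In iPSCs COX3 averaged 7496 ± 1821 CPM (SD, n = 3), against 7318 CPM in fibroblasts, a log2 fold change of 0.03 with an interval from -0.94 to 1.01 (edgeR adjusted p = 0.957). In iPSCs COX1 averaged 14977 ± 4570 CPM (SD, n = 3), against 20003 CPM in fibroblasts, a log2 fold change of -0.42 with an interval from -1.46 to 0.62 (edgeR adjusted p = 0.482). The median log2 fold change of all models was 0.27 with TMM and 0.78 when totals alone were used for scaling. The value of COX1 was 0.10 with library size only, where it was still below the median of all models, and stayed below 0 in 10 of 11 alternatives. That of COX3 changed sign in 3 of 11, with -0.01 with the size factors of DESeq2 and -0.09 without iPSC 2. COX3 thus has no direction against fibroblasts, and neither gene was called in any alternative. With library size only, 32.4% of all models were called against fibroblasts instead of 28.0%. Of these, 68.1% were higher in iPSCs instead of 48.8%, and ATP8 and ATP6 were called beside CYTB. In the comparison with iNSLCs that scaling gave 41.7% instead of 31.3% and called COX2 and ATP6 in addition, and the median of all models was 0.36 instead of 0.20. Of all models, 11.5% were then called instead of 11.2%.

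**Figure D3:**
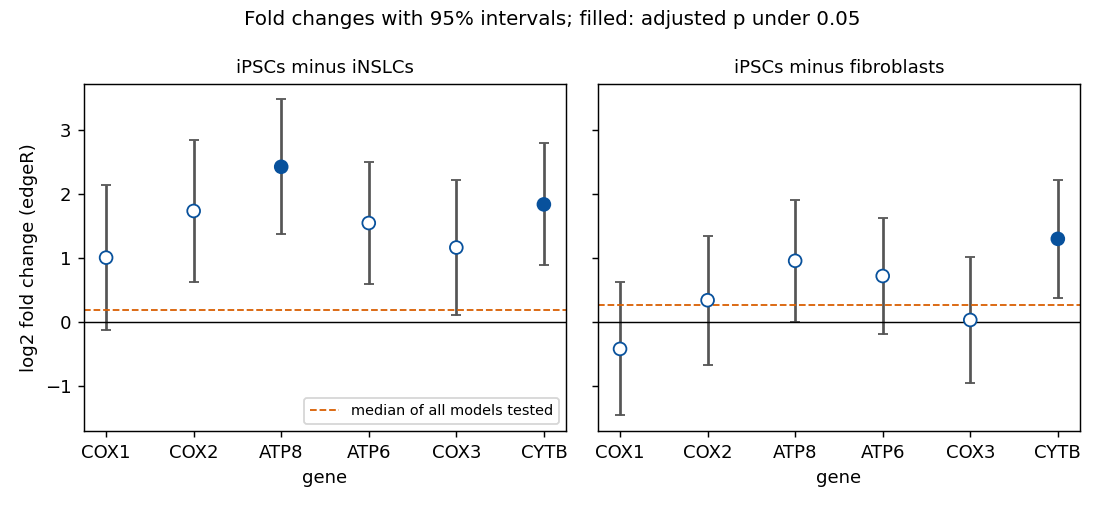
Log2 fold change from edgeR (y axis) of each gene in iPSCs minus iNSLCs (left) and in iPSCs minus fibroblasts (right), with 95% intervals, filled where the adjusted p over all models is under 0.05. ATP8 (2.43) and CYTB (1.84) are called on the left and CYTB (1.30) on the right, and the dashed line is the median of all models (0.20 left, 0.27 right).

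The first step of reprogramming, iNSLCs against fibroblasts, has 1 library each and was not tested. Every one of the 6 genes was lower in the iNSLC library. The ratio of iNSLCs to fibroblasts in TMM-scaled CPM was 0.361 for ATP8 (counting interval 0.343 to 0.380), 0.372 for COX1 (0.369 to 0.375) and 0.380 for COX2 (0.375 to 0.385). It was 0.456 for COX3 (0.451 to 0.461), 0.563 for ATP6 (0.556 to 0.570) and 0.688 for CYTB (0.675 to 0.702). At most 0.5 times the fibroblast level was found for 4 of the 6 genes and for 20.9% of the 10237 models with at least 10 CPM in either library. With library size only the ratios ran from 0.460 for ATP8 to 0.876 for CYTB, and the order of the genes was the same. ATP8 and ATP6 thus had unequal ratios although their models overlap.

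Ratios between the genes within a library do not depend on the scaling. Among the counts of the 6 genes, COX1 made up 49.8% in fibroblasts, 43.6% in iNSLCs and 34.3%, 37.6% and 32.1% in the clones. The lone libraries were both above every clone. CYTB made up 3.91% in fibroblasts, 6.34% in iNSLCs and 9.43%, 8.05% and 10.04% in the clones, in the reverse order. ATP8 and ATP6 together made up 13.5% in fibroblasts, 17.5% in iNSLCs and 23.1%, 19.7% and 21.7% in the clones. The share of the 3 COX genes was 82.6% in fibroblasts, 76.2% in iNSLCs and 67.5%, 72.3% and 68.3% in the clones. For these 4 shares the iNSLC library lay between the fibroblasts and the clones. It did not for COX2, ATP8 alone and COX3, and how often such an order occurs among all models was not computed. COX2 made up 14.5% in fibroblasts, 13.0% in iNSLCs and 16.5% to 17.7% in the clones. ATP8 made up 1.03% in fibroblasts, 0.872% in iNSLCs and 1.51% to 2.35% in the clones, so that the order for ATP synthase was that of ATP6. COX3 made up 18.2% in fibroblasts, 19.6% in iNSLCs and 16.7% to 18.5% in the clones.

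**Figure D4:**
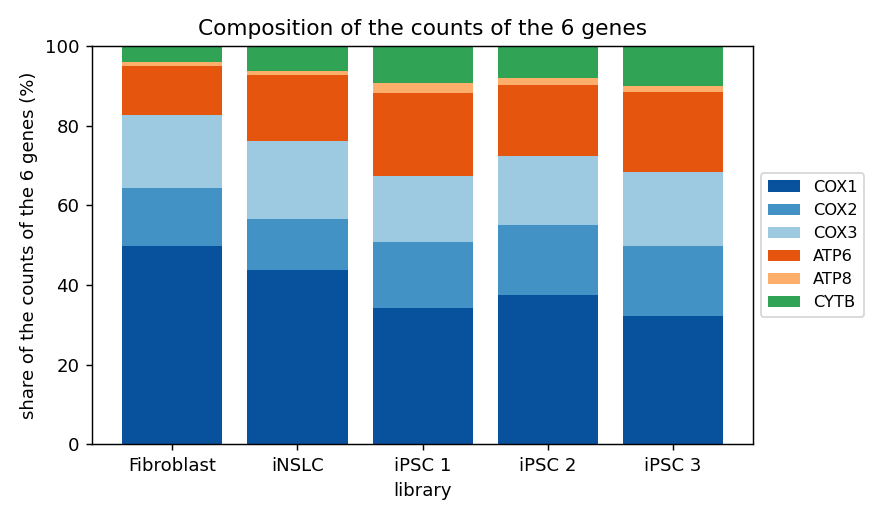
Share of the counts of the 6 genes (%, y axis) taken by each gene, with 1 bar per library in the order of the stages. COX1 takes 49.8% in fibroblasts, 43.6% in iNSLCs and 32.1% to 37.6% in the clones, and CYTB takes 3.91%, 6.34% and 8.05% to 10.04%.

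Within cytochrome c oxidase, the subunits did not move in step. The ratio of COX2 to COX1, as counts per kb, was 0.659 in fibroblasts (counting interval 0.655 to 0.663) and 0.673 in iNSLCs (0.664 to 0.683). In the clones it was 1.09, 1.05 and 1.25, a mean of 1.13 ± 0.107 (SD, n = 3). COX1 thus exceeded COX2 before the iPSC stage and was below it in each clone. The ratio of COX3 to COX1 was 0.721 in fibroblasts, 0.884 in iNSLCs and 0.958, 0.907 and 1.13 in the clones. The iNSLC value was below the lowest clone by less than the SD of the clones, 0.119. The ratio of COX3 to COX2 was 1.09 in fibroblasts, 1.31 in iNSLCs and 0.881, 0.865 and 0.908 in the clones. Its highest clone was 1.05 times its lowest, and both lone libraries lay above every clone.

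Within ATP synthase, the ratio of ATP8 to ATP6 per kb was 0.274 in fibroblasts (counting interval 0.268 to 0.279), 0.175 in iNSLCs (0.167 to 0.184) and 0.377, 0.345 and 0.251 in the clones. The iNSLC library was below every clone and the fibroblast library was inside their range. The mean of the clones was 0.324 ± 0.0658 (SD, n = 3), which was 1.85 times the iNSLC ratio. This ratio rests on the shortest of the models and on the bases it shares with ATP6. With the shared bases left out of the lengths it was 0.324 in fibroblasts, 0.208 in iNSLCs and on average 0.384 in the clones. That change scales every library alike and leaves the counts as they were, so it cannot check how reads were split between ATP8 and ATP6.

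Between complexes, the ratios of ATP6 and CYTB to COX1 were higher at each later stage, and that of ATP8 to COX1 was not. Fibroblasts and iNSLCs are lone libraries, and how often such an order occurs among all models was not computed. ATP6 to COX1 was 0.570 in fibroblasts, 0.862 in iNSLCs and 1.37, 1.08 and 1.43 in the clones, with a mean of 1.29 ± 0.189 (SD, n = 3). CYTB to COX1 was 0.106 in fibroblasts, 0.197 in iNSLCs and 0.373, 0.290 and 0.424 in the clones, with a mean of 0.362 ± 0.0674 (SD, n = 3). ATP8 to COX1 was 0.156 in fibroblasts and 0.151 in iNSLCs, with overlapping counting intervals, and 0.518, 0.371 and 0.357 in the clones. The clone mean of CYTB to COX1 was 1.84 times the iNSLC ratio and 3.40 times the fibroblast ratio. CYTB to ATP6 was 0.187 in fibroblasts, 0.228 in iNSLCs and 0.271, 0.270 and 0.297 in the clones, so that these genes kept more nearly in step. Of the 15 ratios between the 6 genes, 14 had the iNSLC library outside the range of the clones, as had 73.8% of all ratios between nuclear models with at least 10 CPM in every library. For the fibroblasts the numbers were 14 of 15 and 80.5%. A lone library outside the clones was therefore common, and the 15 ratios share genes.

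**Figure D5:**
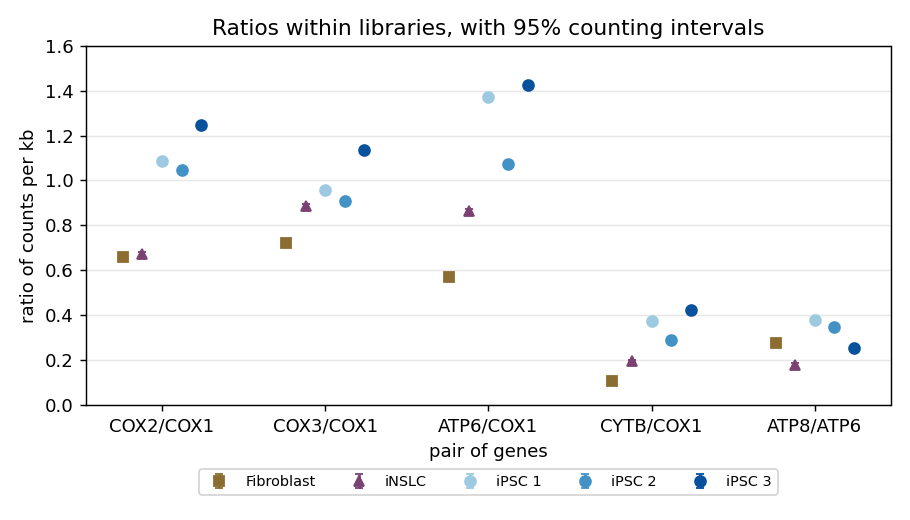
Ratio of counts per kb within each library (y axis) for 5 pairs of genes (x axis), with 1 point per library and 95% counting intervals, most of them smaller than the points. COX2/COX1, ATP6/COX1 and CYTB/COX1 are higher in each clone than in both lone libraries, while ATP8/ATP6 in fibroblasts (0.274) lies among the clones.

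Compared with the other 9 mitochondrial models of at least 200 bases, the 6 genes took a smaller part of the mitochondrial counts in iPSCs. Of the counts of all 15 longer models they made up 71.6% in fibroblasts, 67.6% in iNSLCs and 61.3%, 60.4% and 65.3% in the clones. In the comparison of iPSCs with iNSLCs, the median log2 fold change was 1.64 for the 6 genes and 1.69 for the 9 others, of which edgeR called 1, at 10201 to 11578. Against fibroblasts the medians were 0.53 for the 6 genes and 0.71 for the 9 others, whose lowest edgeR adjusted p was 0.0669, for the model at 70 to 1023 (log2 fold change -1.36). The models at 70 to 1023 and 1091 to 2670 had log2 fold changes of only 0.16 and 0.04 against iNSLCs, below each of the 6 genes.

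The iNSLC library was lowest for the 6 genes, and also lowest in depth and highest in its share of even counts. It had 22.3% of its counts in the 50 most abundant nuclear models. The fibroblast library had 19.5% in these nuclear models and the clones between 8.04% and 9.86%. Among the clones, iPSC 2 had the fewest counts (20021139) and the highest level of the 6 genes. The part of these differences in the results was not tested. With mitochondrial models left out of the scaling, the ratio of iNSLCs to fibroblasts for the 6 genes summed was 0.425, as in the main scaling. That alternative does not address the differences above. All mitochondrial models held only 2.48% of the counts in iNSLCs and 4.33% in fibroblasts, so it could change little.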

How the data were processed

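The deposited values were raw counts of reads per gene model made by the authors. The submitters' processing notes name the build CanFam3.1 and the tools featureCounts 1.5.2, STAR 2.5.3a and Trim Galore 0.4.0, with settings for strand, overlap and multi-mapped reads not given in the sources. The table of the whole series repeated the counts of the 5 library tables with 0 differing values, and 0 columns were left out. The deposited model lengths scaled levels per kb. Members and lists were chosen with earlier results of these data known.

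In R 4.3.3, edgeR 4.0.16 fitted the 3 groups in 1 model after filterByExpr and TMM scaling. The p was adjusted by Benjamini-Hochberg over 17479 models (threshold 0.05). A check on simulated counts covered the median size of known fold changes, and set no limit on false calls. The fit had 2 residual degrees of freedom and 4.06 from the prior. Fold changes have 95% intervals from the same fit. Likeness was Pearson's r of log2 CPM (prior count 2) with the mean of the 6 genes over 5 libraries, among models with at least 10 CPM in each, of which the first 2 of each genome are given. Since the clones share 1 dog, p-values cover clone to clone spread only. The gene table (43286 rows, UU_Cfam_GSD_1.0) matched 0 IDs, so nuclear subunits and cell type markers were not analysed. Alternatives were other scalings, no filter, mitochondrial models left out of the scaling, DESeq2 1.42.0, limma-voom 3.58.1, halved counts, other lengths or totals, and each clone left out.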

Additional observations from a re-analysis of the deposited data

How the results depend on the processing

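No paired analysis was possible because the groups share fewer than 2 replicate numbers. Called against iNSLCs were 2 of the 6 genes in the main test, 4 with library size only, without the filter, with DESeq2 and with limma-voom, and 0 to 4 with 1 clone left out. The shares of all models called were 11.2%, 11.5%, 11%, 19.9% and 9.73% in these fits, and 0 to 24.3% with 1 clone left out. Against fibroblasts it was 1 gene, 0 with DESeq2 size factors, 3 with library size only, and 0 to 1 with 1 clone left out. The shares of all models were 28.0%, 28.5%, 32.4% and 16.6% to 40.3% in the same order. Of all models, 1961 were called against iNSLCs, 3480 by DESeq2 and 0 to 4159 with 1 clone left out (0 without iPSC 3, 4159 without iPSC 2), and against fibroblasts 4895 and 2774 (without iPSC 3) to 6906. The fit without iPSC 2 had infinite prior degrees of freedom, so its number of calls cannot be compared directly with the others. Against fibroblasts, COX1 turned to 0.10 with library size only, and COX3 to -0.01 with DESeq2 or its size factors (-0.00677 in each). With 1 clone left out, COX3 had values between -0.0942 (without iPSC 2) and 0.272 (without iPSC 1). The summed ratio of iNSLCs to fibroblasts was 0.425, 0.541 with library size only and 0.436 with DESeq2 size factors. Without the 50 most abundant nuclear models in the total, the share of the 6 genes was 3.84% in fibroblasts, 2.15% in iNSLCs and 5.17% in iPSCs. With 1 clone left out the iPSC mean was 4.06% to 5.22%. The COX share per kb was 74.1% in fibroblasts, 67.9% in iNSLCs and 60.3% in iPSCs. Without ATP8 the COX share was 83.4% in fibroblasts, 76.9% in iNSLCs and 70.7% in iPSCs. With 1 clone left out, its iPSC mean over counts was 67.9% to 70.3%. With shared bases left out, ATP8/ATP6 was 0.324 in fibroblasts, 0.208 in iNSLCs and 0.384 in iPSCs. ATP6/COX1 was then 0.608 in fibroblasts, 0.920 in iNSLCs and 1.38 in iPSCs. Changed lengths scale every library alike, so the order of the libraries could not change in either ratio. Of the values that answer a comparison, some of them given above, 64 kept their side of the threshold or moved by less than their spread, and 28 did not. Of the further values for single genes and shares, 144 did, while 35 moved, 12 became stronger, 6 became weaker and 4 reversed. With 1 clone left out, the mean ratios were 1.07 to 1.17 for COX2/COX1. Causes were not tested, apart from those that follow from a changed length or total. At 1705 counts or more per gene and library, counting intervals were narrow, but no comparison at matched depth was run.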

Other observations

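Of the 22 mitochondrial models shorter than 80 bases, 21 had at most 146 counts in any library. The exception, on the minus strand at 15392 to 15457 and next but one to CYTB, had 3457 counts in fibroblasts, 494 in iNSLCs and 3315, 3829 and 4652 in the clones. It is given here after its values were seen.

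The mitochondrial models most like the mean of the 6 genes over the 5 libraries were those at 10201 to 11578 (Pearson's r = 0.986) and 13582 to 14109 (r = 0.976). Of 6899 nuclear models, 72 (1.04%) had an r of at least 0.95, led by ENSCAFG00000017398 (chromosome 7, 43171580 to 43175063, r = 0.999) and ENSCAFG00000017521 (chromosome X, 74500566 to 74505498, r = 0.996). ENSCAFG00000017398 had 140 CPM in fibroblasts, 112 CPM in iNSLCs and 144 to 163 CPM in the clones. These values of r are descriptions over 5 libraries, 3 of them clones of the same dog. Among the 6 genes themselves, r was 0.978 between COX2 and COX3 and 0.973 between ATP6 and CYTB, but 0.473 between COX1 and CYTB.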
